A study of Rattus norvegicus with 17 samples.

Results

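Hox genes encode homeodomain transcription factors that lie in 4 chromosomal clusters, HoxA to HoxD, and carry paralogue numbers that follow their order along a cluster. In vertebrate embryos, low-numbered genes reach further towards the head and high-numbered genes are restricted to the trunk and tail, so that a neuron's Hox set records its position on the body axis. The dorsal root ganglia hold the cell bodies of somatic sensory neurons, and those of the lumbar levels L4 and L5 serve mainly the hindlimb. The genes described here are the 32 rows of the count tables whose names are Hox, a cluster letter and a number, of 32883 rows in all. They comprise 4 HoxA, 10 HoxB, 9 HoxC and 9 HoxD genes.

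The series asks what sets the axonal growth capacity of different peripheral sensory neuron subtypes apart. It profiled single neurons from L4 and L5 ganglia of both sides of adult male Sprague-Dawley (SD) rats of 200 g, each collected by hand and amplified by an adapted Smart-seq2 method in which the primer on the poly(A) tail adds a cell barcode and a unique molecular identifier (UMI). All samples form 1 group, the DRG neurons, with no treated or control group, and each sample is a batch of pooled cells. The protocols describe neurons plated for 15 minutes and neurons with neurites plated for 72 hours, from at least 5 rats per time point, and also speak of fluorescently labelled neurons. Which of these a batch was, and which animals it came from, the labels do not say.

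The labels list 17 samples. The counts given for batch 21 were the same as those of batch 20 and were left out, which gave 16 batches with 1040 cells, of which 967, those with 2000 or more detected genes, were used. A batch kept 32 to 93 cells and 3812280 to 26065847 UMIs, and a cell 4307 to 1514406 UMIs with a median of 139374. Values are in CPM, a gene's UMIs as a part of all UMIs of the same cells on the usual scale of that unit, and since a UMI marks one molecule at its 3′ end, levels of different genes are compared without dividing by length. The batch is the replicate, and nothing says that batches came from separate animals, so p-values measure the spread between batches only. The 6 neuronal markers checked (Snap25, Tubb3, Uchl1, Prph, Nefl and Rbfox3) were detected in the cells of every gate described here, at 4310 to 8510 CPM summed, against 140 to 1350 CPM for 5 glial markers.

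The sequence upstream of 3 HoxD genes is shown because these genes gave different results across the marker gates described further on. Hoxd1 was called higher in 1 gate and Hoxd8 lower in another. Both calls were lost in some other settings, in 5 of 13 for Hoxd1 and 4 of 13 for Hoxd8. Hoxd4 had the highest level in the HoxD cluster and no call. Each sequence is the 250 bases before the annotated start on the plus strand of build GRCr8, from RefSeq, 5′ to 3′. The counts were made on Rnor_6.0. RefSeq entries of this kind were at hand for 15 of the 32 genes and for none of the HoxB genes with the largest differences. Capitals mark CCAAT or its reverse complement ATTGG, and CACGTG.
Hoxd1, chr3:80072791-80073040: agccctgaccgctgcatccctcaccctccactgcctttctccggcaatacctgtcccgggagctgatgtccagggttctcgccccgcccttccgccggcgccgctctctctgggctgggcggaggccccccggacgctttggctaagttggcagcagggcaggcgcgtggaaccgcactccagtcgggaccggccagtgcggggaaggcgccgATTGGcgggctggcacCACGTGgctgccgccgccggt
Hoxd4, chr3:80021636-80021885: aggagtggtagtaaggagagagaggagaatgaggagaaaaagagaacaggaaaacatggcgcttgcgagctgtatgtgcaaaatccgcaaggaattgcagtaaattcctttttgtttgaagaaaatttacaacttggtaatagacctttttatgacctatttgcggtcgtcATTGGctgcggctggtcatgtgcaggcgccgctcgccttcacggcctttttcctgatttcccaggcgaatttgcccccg
Hoxd8, chr3:80014973-80015222: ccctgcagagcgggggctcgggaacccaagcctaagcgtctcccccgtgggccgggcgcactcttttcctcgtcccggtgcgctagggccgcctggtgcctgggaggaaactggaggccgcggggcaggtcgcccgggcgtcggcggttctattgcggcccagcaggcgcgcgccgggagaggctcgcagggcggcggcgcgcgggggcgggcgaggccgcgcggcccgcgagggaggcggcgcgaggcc

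Of these windows, that of Hoxd1 holds 1 CCAAT match and 1 CACGTG match, that of Hoxd4 holds 1 CCAAT match, and that of Hoxd8 holds neither. Their GC content is 71.6% for Hoxd1, 47.2% for Hoxd4 and 78.8% for Hoxd8, against a median of 51.2% over 33469 entries. On both strands, CCAAT is in 34.0% and CACGTG in 5.59% of all 33469 windows. Among the 15 Hox genes with an entry, 9 have a CCAAT match and 7 a CACGTG match, so neither is particular to Hoxd1. The letters TATAAA, in 12.9% of all windows, and TGATNNAT, in 7.96%, are in none of the 3. A match describes these letters and is no evidence of binding.

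Summed over all kept cells of a batch, HoxC transcripts were the most abundant, then HoxD, then HoxB, and no HoxA transcript was counted. The order was not the same in every gate. In the sums of the Clmp gate, described further on, HoxB averaged 101 CPM, HoxC 98.9 CPM and HoxD 72.1 CPM. Pooled over the cells of that gate, HoxB was at 98.9, HoxC at 99.5 and HoxD at 76.2 CPM. HoxB was thus above HoxD there and about level with HoxC. Over the 16 batches the 9 HoxC genes summed to 118 ± 20.5 CPM (SD), the 9 HoxD genes to 82.1 ± 18.6 CPM and the 10 HoxB genes to 53.1 ± 21.1 CPM. HoxC was above HoxD in 16 of 16 batches, by 0.53 ± 0.28 on the log2(CPM + 1) scale (SD over batches). HoxC was above HoxB in 16 of 16 batches, by 1.30 ± 1.02, and HoxD was above HoxB in 15 of 16, by 0.77 ± 0.98. Sign-flip permutation tests over batches, exact and two-sided, gave adjusted p = 3.66e-05 for both HoxC differences, from the smallest p that 16 batches allow (3.05e-05). For HoxD against HoxB the same test gave adjusted p = 0.000458. The adjustment covered 6 pairs of clusters. Those with HoxA, at 0 in every batch, had a p fixed in advance, which makes the adjusted p of the HoxC differences somewhat smaller. A batch sums neurons of several types, so fewer cells of a type and less RNA per cell cannot be told apart in these sums.

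The HoxB sum varied most between batches. Its lowest value was 6.25 CPM in batch 24, which held no cell of the Clmp gate described further on, the next was 14.6 CPM in batch 28-3, and the highest was 75.8 CPM in batch 35. The HoxC sum ran from 82.4 CPM in batch 28-3 to 173 CPM in batch 24, and the HoxD sum was lowest in batch 28-1 and highest, at 104 CPM, in batch 32. The batch with the lowest HoxB sum thus had the highest HoxC sum.

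The zero for HoxA covers Hoxa3, Hoxa7, Hoxa9 and Hoxa10. None of these 4 rows had a UMI in any of the 1040 cells, which allows a level of up to 0.0142 CPM over the kept cells (3 counts, counting error only). Genes that flank the HoxA cluster were counted: Skap2 had a UMI in 75.7% of kept cells and Hibadh in 78.1%. The part of the authors' annotation and counting in the HoxA zeros was not tested, so HoxA is given as listed at 0 and no fold is drawn from it. The paralogue sums below hold HoxB, HoxC and HoxD molecules only.

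**Figure D1:**
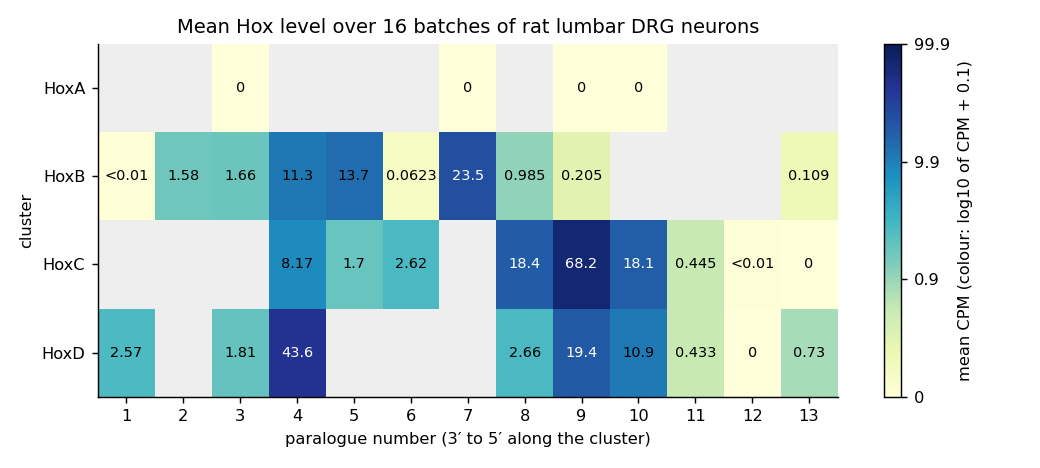
Mean level of each Hox gene over 16 batches, by cluster (rows) and paralogue number (columns); numbers are mean CPM, colour is log10 of CPM + 0.1, and grey cells have no row under the naming rule. The 2 highest cells are Hoxc9 at 68.2 CPM and Hoxd4 at 43.6 CPM, and the 4 HoxA cells are at 0.

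Summed by paralogue number, the level had 2 peaks, at 9 and at 4, and dropped steeply after 10. The sums hold unlike numbers of genes, 1 for number 2 and 4 for number 9, with the HoxA genes at 0 included. Paralogues 9 summed to 87.8 ± 11.2 CPM (SD, 16 batches) and paralogues 4 to 63.1 ± 16.2 CPM. Each peak was largely 1 gene. Hoxc9 averaged 68.2 CPM, against 19.4 CPM for Hoxd9 and 0.205 CPM for Hoxb9. Hoxd4 averaged 43.6 CPM, against 11.3 CPM for Hoxb4 and 8.17 CPM for Hoxc4. Paralogues 10 were at 29.0 ± 6.71 CPM, 7 at 23.5 ± 11.7, 8 at 22.0 ± 5.79 and 5 at 15.4 ± 7.23 CPM. Paralogues 1, 2, 3 and 6 were at 1.58 to 3.47 CPM. Paralogues 11 and 13 were at 0.878 ± 1.03 and 0.838 ± 1.84 CPM, and paralogues 12 at 0.00573 CPM from 2 UMIs in 1 cell.

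Of the 12 steps between neighbouring numbers, 10 passed the exact two-sided sign-flip permutation test after adjustment. The step from 10 to 11 was the largest on this scale. Paralogues 11 were at 0.878 CPM against 29.0 CPM for paralogues 10, lower in 16 of 16 batches, by a mean of -4.13 ± 0.71 on the log2(CPM + 1) scale (adjusted p = 7.32e-05). Paralogues 4 were above paralogues 3 in 16 of 16 batches, at 63.1 against 3.47 CPM (3.85 ± 0.34, adjusted p = 7.32e-05). Paralogues 9 were above paralogues 8 in 16 of 16 batches (1.99 ± 0.26, adjusted p = 7.32e-05). Paralogues 2 against 1 (-0.29 ± 0.82, adjusted p = 0.191) and 8 against 7 (0.14 ± 1.20, adjusted p = 0.669) differed by less than the spread between batches.

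In single cells the same UMIs were read as detection, by bands of paralogue numbers. The bands hold unlike numbers of genes and join paralogues 4 with 5 to 8, so they do not show peaks at single numbers. When each cell was thinned to 50000 UMIs, which left 690 cells, the median cell had 5 Hox genes with a UMI, with quartiles of 3 and 6 and a highest of 12, and 5 cells had none. At this depth 95.7% of cells had a UMI of paralogues 9 or 10 and 93.8% one of paralogues 4 to 8. Paralogues 1 to 3 were seen in 20.1% of cells, and 11 to 13 in 4.49%. By cluster, 95.5% of these cells had a HoxC UMI, 85.9% a HoxD UMI and 57.8% a HoxB UMI.

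Hoxc9, which in mouse sets thoracic identity of spinal motor neurons, had the highest level of all 32 genes. It was at 53.4 CPM in its lowest batch, 65.6 in the median one and 92.1 in the highest, with a UMI in 77.5% of kept cells (exact binomial 95% interval 74.7 to 80.1%). Hoxd4 followed at 13.4, 47.2 and 67.4 CPM for the lowest, median and highest batch, and a UMI in 69.2% of cells (66.2 to 72.1%). Both were seen in all 16 batches, and the lowest Hoxd4 batch, 28-1, was also the one with the fewest UMIs.

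A second tier held 8 genes with means of 8.17 to 23.5 CPM. Hoxb7 averaged 23.5 ± 11.7 CPM (SD, 16 batches), Hoxd9 19.4 ± 5.53, Hoxc8 18.4 ± 4.86 and Hoxc10 18.1 ± 4.78 CPM. Hoxb5 was at 13.7 ± 7.64 CPM, Hoxb4 at 11.3 ± 5.06, Hoxd10 at 10.9 ± 3.70 and Hoxc4 at 8.17 ± 3.15 CPM. In mouse, Hoxc10 and Hoxd10 act in lumbar motor neurons, Hoxc8 in those of the lower cervical cord, and Hoxb5 in the neural crest that forms the enteric nervous system. Detection was 53.8% of cells for Hoxc10, 52.6% for Hoxc8, 54.7% for Hoxd9 and 28.0% for Hoxd10. Among the HoxB genes of this tier it was 42.8% for Hoxb4, 40.3% for Hoxb7 and 29.6% for Hoxb5.

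The 3 HoxB genes had the widest spread relative to their means in this tier. Hoxb7 ran from 2.03 CPM in batch 24 to 41.5 CPM in batch 34, Hoxb5 from 0.469 CPM in batch 24 to 25.0 CPM in batch 33, and Hoxb4 from 2.03 CPM in batch 24 to 22.0 CPM in batch 30. Batch 24 was the lowest batch for all 3.

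The next 7 genes, each with a UMI in at least 10% of cells, were at 1.58 to 2.66 CPM: Hoxd8, Hoxc6, Hoxd1, Hoxd3, Hoxc5, Hoxb3 and Hoxb2. Hoxd1, which in mouse is induced by nerve growth factor in nociceptors and shapes their endings in the skin, was at 0.246 CPM in its lowest batch, 1.48 in the median one and 6.74 in the highest. Its UMIs were unevenly held: 1 cell carried 15.3% of them, against 1.02% for Hoxc9. The RefSeq spans of Hoxc4 and Hoxc5 both overlap that of Hoxc6, and that of Hoxb5 overlaps the antisense gene Hoxb5os, which has no row. No source used here states whether counting used strand, so the split of molecules within these pairs is uncertain.

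**Figure D2:**
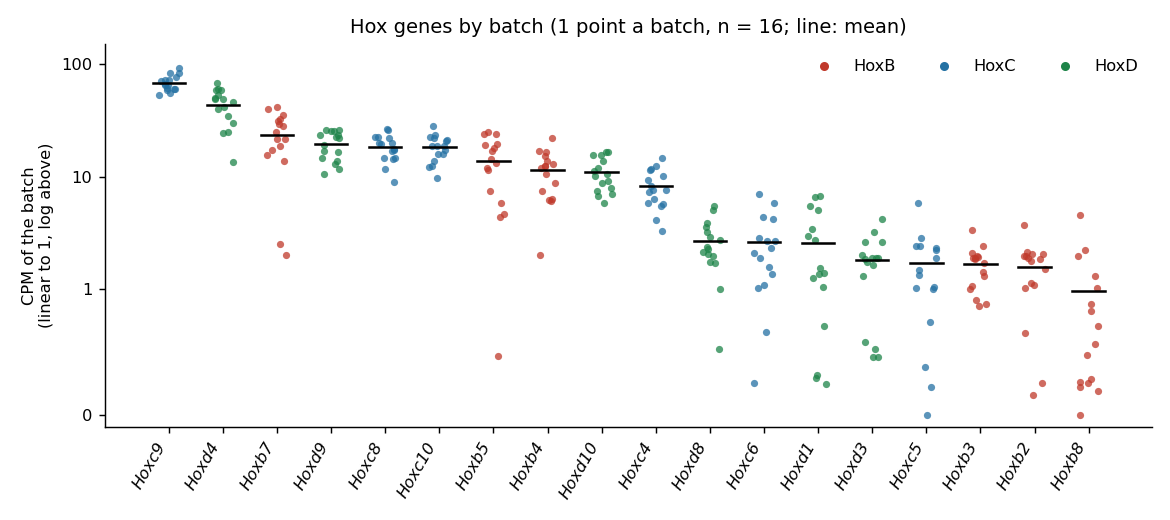
CPM of the 18 named Hox genes in each of 16 batches (1 point a batch, line at the mean; the axis is linear to 1 and logarithmic above), ordered by mean and coloured by cluster. Hoxc9 is above 50 CPM in every batch, while Hoxb7, Hoxb5 and Hoxb4 have isolated low batches.

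The remaining genes were rare. Besides Hoxb8, with a UMI in 5.89% of cells, 8 genes were seen in fewer than 10% of cells and 6 in none, the 6 being the 4 HoxA genes, Hoxc13 and Hoxd12. Genes of the tail end of the clusters came from few cells: Hoxb13 had 16 UMIs, of which 14 lay in 1 cell of batch 27 that met the Pvalb and Vsnl1 gate. Hoxd13 had 65 UMIs in 14 cells, with 23 in 1 cell of batch 28-1 and 19 in 1 cell of batch 24. Hoxc11 had 108 UMIs in 15 cells and Hoxd11 had 89 in 36 cells, and the cell with most Hoxc11 UMIs (31) was also the one with most Hoxd11 UMIs (8). Hoxb9, beside Hoxb8 in its cluster, had 41 UMIs in 11 cells, and Hoxb6, between Hoxb5 and Hoxb7, 11 UMIs in 10 cells.

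Neuron types were compared through gates on marker genes that are not Hox genes, each gene needing at least 3 UMIs and 30 CPM in a cell. Sst and Nppb encode peptides that mark itch neurons in mouse, Trpm8 the cold channel, Clmp an adhesion molecule, Th tyrosine hydroxylase, Ntsr1 and Chrna3 a neurotensin and a nicotinic receptor, Gzmbl3 and Lpar3 a granzyme-like protein and a lysophosphatidic acid receptor, and Pvalb and Vsnl1 calcium-binding proteins. The Clmp gate alone held 203 cells, Sst+Nppb 91, Ntsr1+Chrna3 51, Gzmbl3+Lpar3 46, Th 23, Trpm8 17 and Pvalb+Vsnl1 3. A further 73 cells met several gates and were left out, and 460 met none.

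The gates are named by their genes, since other markers only partly bear out a type. Kit was at 213 CPM in the Clmp gate, against 13.4 CPM in the other gates, and Calca, which encodes CGRP, at 1710 against 705 CPM. In the Sst+Nppb gate Osmr was at 70.7 against 10.2 CPM, and Il31ra and Jak1 were higher too. Cysltr2 went the other way there, at 0.0489 against 0.264 CPM. In the Gzmbl3+Lpar3 gate Gfra2 was at 57.2 against 7.41 CPM and P2rx3 at 425 against 277 CPM, while Ret was alike, at 137 against 135 CPM. Mrgprd, a marker of non-peptidergic neurons in mouse, was at a low 0.575 CPM in the Gzmbl3+Lpar3 gate, against 0.00951 CPM in the other gates. Slc17a8 and P2ry1 were at 0 in the Th gate. Neither gate therefore carries a type label here.

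UMIs were summed over the cells of a gate in each batch with 3 or more of them. This gave 15 sums for Clmp, 12 for Sst+Nppb, 11 for Ntsr1+Chrna3, 7 for Gzmbl3+Lpar3 and 3 for Th, fitted together with the batch as a term, and 14574 genes were tested. Trpm8, with 2 sums, and Pvalb+Vsnl1, with none, are described only. Of the 32 Hox genes, 19 passed the filter on low counts and entered the test; the other 13 did not. Each gate is set against the mean of the other 4 tested gates, and the contrasts share their sums, so they are not independent.

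Of the tested genes, 4 of 6 HoxB, 0 of 7 HoxC and 1 of 6 HoxD genes passed across the gates, and no test set the clusters against each other. Across the 5 gates, edgeR's quasi-likelihood F-test called 5 of the 19 Hox genes at an adjusted p under 0.05 (26.3%), against 22.2% of all tested genes, so the share alone is near the background. The 5 were Hoxb4 (adjusted p = 0.00203), Hoxb5 (2.85e-07), Hoxb7 (1.32e-06), Hoxb8 (0.0018) and Hoxd1 (0.00803). Hoxb2 (adjusted p = 0.114) and Hoxb3 (0.215) did not pass, and the lowest adjusted p of a HoxC gene was 0.0661, for Hoxc4.

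In the Clmp gate 6 of the 19 Hox genes were called (31.6%), all higher, against 14.6% of all tested genes called in either direction. They were Hoxb2, Hoxb4, Hoxb5, Hoxb7, Hoxb8 and Hoxd1. The median log2 fold change of the 19 was 0.94, and 0.45 without Hoxb8 and Hoxc11, which are at 0 in every sum of at least 1 gate, against 0.08 for all tested genes. The HoxB cluster held 36.0% of all Hox UMIs in the Clmp gate, against 13.7% in Sst+Nppb, 8.28% in Th, 8.00% in Ntsr1+Chrna3 and 2.42% in Gzmbl3+Lpar3.

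Hoxb7 was at 2.69 CPM in the lowest, 49.2 in the median and 95.1 in the highest of 15 Clmp sums. Elsewhere the lowest, median and highest sums were 0, 6.12 and 41.3 CPM in Sst+Nppb, 0, 2.74 and 14.1 in Ntsr1+Chrna3 and 0, 1.56 and 8.30 in Gzmbl3+Lpar3, and the 3 Th sums were 0, 0 and 7.14 CPM. The Clmp sums were above 30 CPM except in batch 25 (8.51 CPM, 13 cells) and batch 28-3 (2.69 CPM, 5 cells). The groups overlap there and through the Sst+Nppb sum of batch 34, at 41.3 CPM. Hoxb7 had a log2 fold change of 3.73 ± 0.49 (SE, adjusted p = 3.21e-07, edgeR), and its Clmp sum was the higher in 12 of 14 batches with another gate. Leaving out batch 33 took it to 5.22 (adjusted p = 4.95e-07).

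Hoxb5 was at 10.9, 24.0 and 33.6 CPM in the lowest, median and highest Clmp sum. It was at 0.497, 3.25 and 49.2 CPM in Sst+Nppb, at 0, 0.513 and 30.4 in Ntsr1+Chrna3, at 0, 0 and 0.595 in Gzmbl3+Lpar3, and at 0.714, 1.00 and 1.44 CPM in the 3 Th sums. Outside the Clmp gate, 1 sum of 3 cells in Sst+Nppb (batch 31, 49.2 CPM) and 1 in Ntsr1+Chrna3 (batch 30, 30.4 CPM) stood within or above the Clmp range, and all other sums of the tested gates were below it. The fold change was 4.15 ± 0.52 on the log2 scale (SE, adjusted p = 7.83e-08, edgeR), higher in 13 of 14 batches. The contrast averages the other gates on the log scale, so the Gzmbl3+Lpar3 sums near 0 enlarge it. In mean CPM Hoxb5 was at 22.4 in Clmp sums against 3.39 in the other 4 gates, a smaller ratio.

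Hoxb4 was at 10.7, 17.5 and 52.0 CPM in the lowest, median and highest Clmp sum, against medians of 9.28 in Th, 8.08 in Ntsr1+Chrna3, 5.93 in Sst+Nppb and 0.782 CPM in Gzmbl3+Lpar3. The groups overlap, since the highest sums of Ntsr1+Chrna3 (18.0), Sst+Nppb (14.7) and Th (14.1 CPM) reach into the Clmp range. Its log2 fold change was 2.20 ± 0.46 (SE, adjusted p = 0.000543, edgeR), and it was higher in 14 of 14 batches. Hoxb4, Hoxb5 and Hoxb7 kept their calls under every alternative in which they could be fitted, with log2 fold changes of 1.57 to 3.42, 2.78 to 5.34 and 2.67 to 5.22.

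The 3 other calls of the Clmp gate concern genes near the detection limit. Hoxb2 averaged 2.75 ± 1.99 CPM in Clmp sums (SD, n = 15), against 0.956 CPM as the mean of the other 4 gates (log2 fold change 2.04 ± 0.65 SE, adjusted p = 0.0276, edgeR). Its call was lost without batch 26, 28-3, 33 or 34, with adjusted p of 0.0512 to 0.0599. Hoxb8 averaged 2.31 ± 3.40 CPM in Clmp sums, against 0.0725 CPM (adjusted p = 0.000465, edgeR). Hoxb8 was at 0 in all 7 Gzmbl3+Lpar3 and all 3 Th sums, so its fitted log2 fold change of 4.26 depends on the prior count and is no bound, and DESeq2 gave adjusted p = 0.0868.

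Hoxd1 averaged 3.86 ± 5.77 CPM in Clmp sums (SD, n = 15), against 0.983 CPM in the other 4 gates (log2 fold change 2.33 ± 0.65 SE, adjusted p = 0.0107, edgeR; higher in 13 of 14 batches). The level was uneven: the Clmp sums ran from 0.188 CPM in batch 22 over a median of 1.19 to 15.3 CPM in batch 34 and 19.1 CPM in batch 27. A single Sst+Nppb sum, in batch 34, reached 18.1 CPM. The call depended on the gate: at a threshold of 10 CPM the fold change was -0.13 (adjusted p = 1), and with at least 5 cells per sum it was 1.38 (adjusted p = 0.287). Without batch 25 it was 3.42 (adjusted p = 0.00348).

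**Figure D3:**
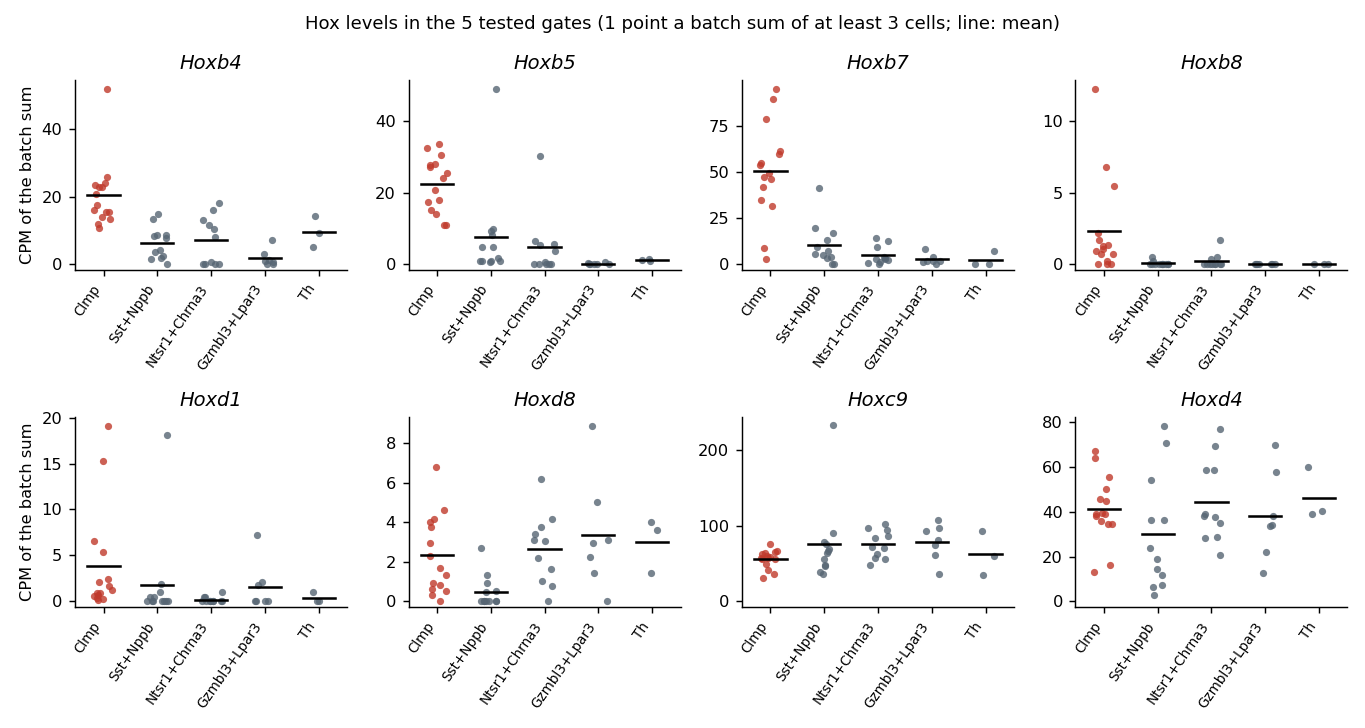
CPM of 8 Hox genes in batch sums of at least 3 cells, by gate (1 point a sum, line at the mean; Clmp in red, the other gates in grey; axes differ between panels and are linear). Hoxb4, Hoxb5 and Hoxb7 have their highest means in the Clmp gate, whereas Hoxc9 and Hoxd4 overlap in all 5 gates.

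In single cells at a fixed depth of 50000 UMIs, Hoxb7 and Hoxb5 both had their highest shares among the tested gates in the Clmp cells. A Hoxb7 UMI was found in 56.4% of 181 Clmp cells (exact binomial 95% interval 48.8 to 63.7%), against 15.1% of 73 Sst+Nppb cells (7.77 to 25.4%), 21.1% of 19 Th cells (6.05 to 45.6%), 20.0% of 50 Ntsr1+Chrna3 cells (10.0 to 33.7%) and 10.9% of 46 Gzmbl3+Lpar3 cells (3.62 to 23.6%). The share in Th and Ntsr1+Chrna3 cells was no lower than in Sst+Nppb cells, whose median sum was higher. In the untested Trpm8 gate it was 42.9% of 14 cells (17.7 to 71.1%). A Hoxb5 UMI was found in 37.0% of Clmp cells (30.0 to 44.5%), against 16.4% of Sst+Nppb cells (8.79 to 27.0%), 5.26% of Th cells and 0 of 46 Gzmbl3+Lpar3 cells (up to 7.71%). Without thinning, Hoxb5 was in 46.3% of Clmp cells and 4.35% of Gzmbl3+Lpar3 cells, although the median depth was 226321 UMIs in the Clmp gate and 394206 UMIs in the Gzmbl3+Lpar3 gate. Thinning left out 22 of 203 Clmp cells, 18 of 91 Sst+Nppb cells and no Gzmbl3+Lpar3 cell. Cells of 1 batch share their source, and these intervals cover counting error only.

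Detection of pairs of genes in the same Clmp cells is given at this depth, at which 1 UMI is 20 CPM, close to the mean of Hoxb4 and Hoxb5 in Clmp sums, so a cell without a UMI may still hold the RNA. Hoxb5 was found in 45.1% of the 102 Clmp cells with a Hoxb7 UMI and in 26.6% of the 79 without one. Hoxb4 was found in 49.0% of the Clmp cells with a Hoxb7 UMI and in 41.8% of those without. For Hoxc9 the shares were 80.4% with and 81.0% without a Hoxb7 UMI, and for Hoxd4 70.6% and 70.9%. For Hoxc10 they were 52.0% and 38.0%, a wider gap than that of Hoxb4, and for Hoxd9 37.3% and 46.8%. Hoxb5 was found in 36.1% of the Clmp cells with a Hoxb4 UMI and in 37.8% of those without. The pairs thus did not divide by cluster, and no pair was tested.

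Whole clusters were compared within batches as a description. HoxB was higher in the Clmp cells in 14 of 15 batches, the exception being batch 25, with 46.6 CPM in the Clmp cells against 52.7 CPM in the cells that do not meet the gate. The HoxB sum was at 46.6, 94.9 and 190 CPM in the lowest, median and highest of 15 batches with Clmp cells, against 6.25, 32.5 and 55.1 CPM in the cells of the 16 batches that do not meet the Clmp gate. For HoxC the Clmp values were 70.2, 94.3 and 133 CPM, against 82.5, 128 and 173 CPM outside the gate. For HoxD they were 32.2, 70.1 and 100 CPM, against 52.3, 99.3 and 125 CPM. HoxC was lower in the Clmp cells in 12 of 15 batches, and HoxD in 11 of 15. Thus HoxB alone had a higher median in the Clmp cells. Batch 24, the lowest for HoxB outside the gate, had no Clmp cell. The cells outside include the 460 that met no gate, with a median of 55354 UMIs, against 226321 UMIs in the Clmp gate.

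**Figure D4:**
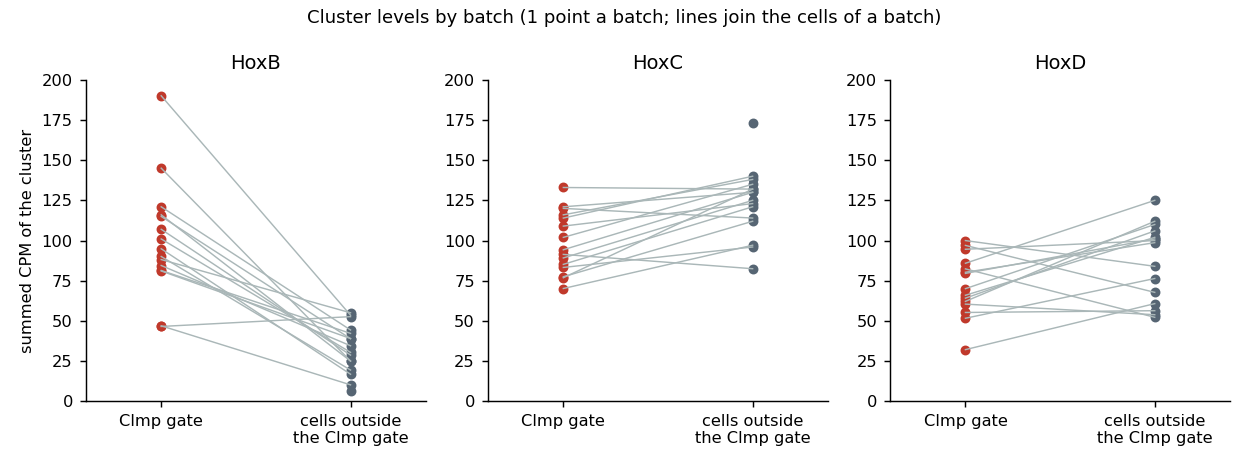
Summed CPM of the HoxB, HoxC and HoxD genes in cells of the Clmp gate (red) and in cells that do not meet it (grey), 1 point a batch, lines joining the cells of a batch. HoxB has medians of 94.9 CPM in the Clmp gate and 32.5 CPM outside it.

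Glial marker RNA was also highest in the Clmp sums. The 5 glial markers used (Sox10, Fabp7, Apoe, Mbp and S100b), none of them at 0 in a tested gate, summed to a median of 256 CPM in the Clmp sums (105 to 484), against 151 in Sst+Nppb (41.2 to 401), 136 in Th (108 to 366), 123 in Ntsr1+Chrna3 (73.1 to 337) and 106 CPM in Gzmbl3+Lpar3 (40.5 to 215). The ranges overlap. When the 154 cells with over 500 CPM of these markers were left out, an alternative chosen after seeing the data, 7 of the 8 Hox calls of the single gates held, with log2 fold changes in the Clmp gate of 3.58 for Hoxb7 (adjusted p = 3.87e-07, edgeR), 3.87 for Hoxb5 (adjusted p = 5.12e-07) and 2.10 for Hoxb4 (adjusted p = 0.00101). The call of Hoxd1 in the Clmp gate was lost, at 1.44 (adjusted p = 0.202).

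The Gzmbl3+Lpar3 gate had the least HoxB RNA. The HoxB sum averaged 5.46 ± 3.99 CPM (SD, 7 sums), against 101 ± 35.8 CPM in 15 Clmp sums and 26.3 ± 20.2 CPM in 12 Sst+Nppb sums. Hoxb5 was at 0 in 5 of the 7 sums and at 0.293 and 0.595 CPM in the other 2, lower than the mean of the other gates in 7 of 7 batches (log2 fold change -4.29 ± 1.04 SE, adjusted p = 0.00469, edgeR). This was the only Hox call in this gate (1 of 19), where 10.9% of all tested genes were called. It rests on 3 UMIs in all, and the fold change was -5.22 without batch 22 and -3.59 without batch 31. With bias-adjusted deviances adjusted p was 0.0688. In this gate 5 Hox genes had an unadjusted p under 0.05 (edgeR), and DESeq2 called 2. Of the 5, Hoxb5, Hoxb3, Hoxb4 and Hoxc6 were lower. Hoxd1 was higher, with a log2 fold change of 2.02 ± 0.98 (SE, p = 0.0455, adjusted p = 0.193, edgeR), though higher in 3 and lower in 3 of 7 batches.

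In the Sst+Nppb gate Hoxd8 was the 1 Hox gene called of 19, where 5.76% of all tested genes were called. It was at 0 in 7 of 12 sums and at 0.497 to 2.69 CPM in the others, with a mean of 0.497 ± 0.821 CPM (SD) against 2.84 CPM in the other 4 gates, and lower in 11 of 12 batches (log2 fold change -2.46 ± 0.68 SE, adjusted p = 0.0214, edgeR). The call was lost without batch 20, 22 or 25 (adjusted p of 0.0524 to 0.0934), and across the 5 gates Hoxd8 did not pass (adjusted p = 0.0528). It was also lost in 4 of 13 other settings, among them a gate threshold of 10 CPM (-0.99, adjusted p = 0.811) and one of 100 CPM (-3.53, adjusted p = 0.113). Hoxc4, which shares paralogue number with Hoxd4 and Hoxb4, averaged 14.9 ± 9.10 CPM in this gate against 7.57 CPM in the others. Its log2 fold change was 1.11 ± 0.42 (SE) and it did not pass (adjusted p = 0.122, edgeR). Hoxb5 came nearer, at 1.58 ± 0.57 (adjusted p = 0.0957, edgeR), yet was lower in 9 of 12 batches, with means of 7.65 against 7.08 CPM. In all, 4 Hox genes had an unadjusted p under 0.05 here (edgeR), and DESeq2 called 2.

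In the Th gate, with 3 sums, no Hox gene of 19 passed, and 0.0755% of all tested genes were called. Hoxb7 was the 1 Hox gene with an unadjusted p under 0.05 there (p = 0.0465, edgeR), at 2.38 ± 4.12 CPM in Th sums against 17.0 CPM in the others. DESeq2 called no Hox gene in this gate either. Its Hoxd10 sums were 12.0, 20.1 and 30.0 CPM and its Hoxd9 sums 18.1, 35.7 and 43.1 CPM, values that overlap those of the other gates. In the Ntsr1+Chrna3 gate none of 19 passed either, with 1.21% of all tested genes called. There Hoxd1 was the 1 Hox gene with an unadjusted p under 0.05 (p = 0.0141, adjusted p = 0.245, edgeR), at 0.185 ± 0.346 CPM against 1.90 CPM in the other gates. DESeq2 gave 0 calls as well.

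**Figure D5:**
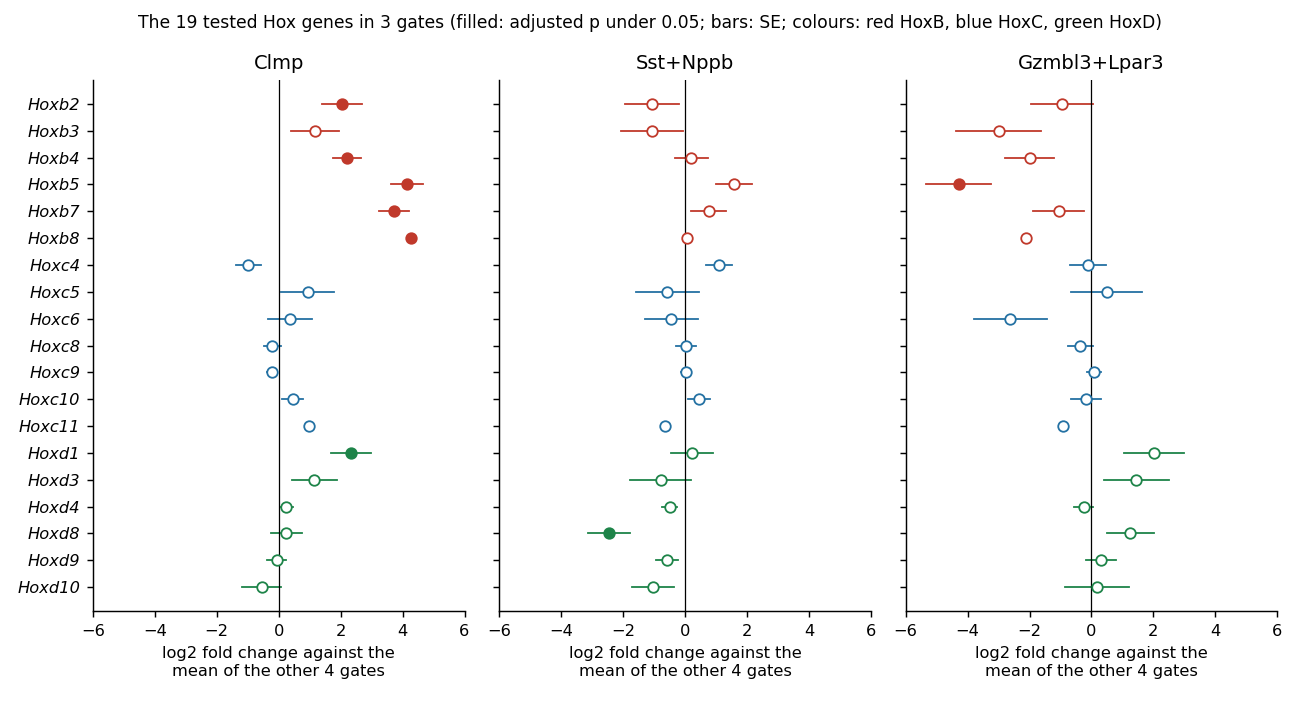
Log2 fold change of the 19 tested Hox genes in 3 gates, each against the mean of the other 4 tested gates (bars are SE, filled points have an adjusted p under 0.05, colours give the cluster; Hoxb8 and Hoxc11 have no bar because they are at 0 in every sum of a gate). The 6 filled points of the Clmp panel are all above 0, and 5 of them are HoxB genes.

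Hoxc9 and Hoxd4, the genes with the highest levels, did not pass in any gate. Hoxc9 averaged 56.0 ± 12.2 CPM in Clmp sums, 75.4 ± 52.5 in Sst+Nppb, 75.7 ± 18.0 in Ntsr1+Chrna3, 78.8 ± 24.2 in Gzmbl3+Lpar3 and 62.8 ± 29.2 CPM in Th (SD); the highest sum, 234 CPM, was of 3 Sst+Nppb cells in batch 24, and the F-test across gates gave adjusted p = 0.639. Hoxd4 averaged 41.2 ± 14.7 CPM in Clmp, 30.1 ± 25.5 in Sst+Nppb, 44.5 ± 18.3 in Ntsr1+Chrna3, 38.2 ± 19.6 in Gzmbl3+Lpar3 and 46.3 ± 11.8 CPM in Th (adjusted p = 0.317). Hoxd9 (adjusted p = 0.600), Hoxc8 (0.858), Hoxc10 (0.429) and Hoxd10 (0.453) did not pass across gates either. A p that misses the threshold does not show equal levels: the log2 fold change in the Clmp gate was -0.22 ± 0.16 (SE) for Hoxc9 and 0.24 ± 0.21 for Hoxd4.

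The 2 untested gates were read from few cells. In the 2 Trpm8 sums Hoxb7 was at 81.2 CPM in batch 20 and 1.33 CPM in batch 25, and Hoxb5 at 23.2 and 0 CPM. The 21 cells that met the Clmp and Trpm8 gates and no other had 64.1 CPM of Hoxb7 and 52.2 CPM of Hoxb5. When such cells were counted in the Trpm8 gate, an alternative chosen after seeing the data, that gate had 8 sums of 31 cells, and Hoxb7 (log2 fold change 2.25 ± 0.45 SE, adjusted p = 0.00095, edgeR), Hoxb5 (2.62 ± 0.60, adjusted p = 0.00451), Hoxd1 (3.09 ± 0.80, adjusted p = 0.0126) and Hoxb8 (adjusted p = 0.011) were called higher there, each against the mean of 5 other gates. Those cells also met the Clmp gate, so the 2 markers cannot be told apart in them. The 3 Pvalb+Vsnl1 cells held 278 Hox UMIs, 602 CPM in all, of which 39.6% were HoxB, and their 5 glial markers stood at 1350 CPM, with Sox10 and Fabp7 at 0.

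Partners and regulators of Hox proteins were listed as well. Of 10 tested TALE homeodomain cofactors (Pbx, Meis, Pknox and Tgif genes, which bind DNA with Hox proteins), 3 were called across gates, a share near the 22.2% of all tested genes. Pbx3 was lower in the Clmp gate, at 18.4 CPM against 38.2 CPM in the other 4 gates (log2 fold change -1.08 ± 0.19 SE, adjusted p = 4.11e-05, edgeR), and higher in the Gzmbl3+Lpar3 gate, at 46.5 against 31.2 CPM (1.00 ± 0.26, adjusted p = 0.0082). Pbx4 was higher in the Sst+Nppb gate, at 59.1 against 11.5 CPM (2.22 ± 0.39, adjusted p = 0.000152).

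Of 23 tested Polycomb genes, which repress Hox genes, 6 were called across gates, also near the 22.2% of all tested genes. Ezh2, the H3K27 methyltransferase, was higher in the Clmp gate at 142 against 92.2 CPM (0.75 ± 0.21, adjusted p = 0.0101, edgeR). It was the 1 Polycomb call of 23 there, where 14.6% of all tested genes were called. The level was not particular to that gate: Ezh2 was at 137 CPM in Sst+Nppb, without a call (0.6 ± 0.22, adjusted p = 0.103, edgeR). It was at 93.8 CPM in Gzmbl3+Lpar3, 75.9 in Ntsr1+Chrna3 and 62.2 in Th. In the Gzmbl3+Lpar3 gate, where 10.9% of all tested genes were called, 3 of 23 were higher and 1 lower, among them Pcgf3 at 100 against 46.0 CPM (1.07 ± 0.21, adjusted p = 0.000421). In the Ntsr1+Chrna3 gate Cbx6 was higher, the 1 call of 23, where 1.21% of all tested genes were called. In Sst+Nppb Pcgf6 was lower, the 1 call of 23, where 5.76% of all tested genes were called. None of 11 trithorax and H3K27 demethylase genes, and none of the 3 tested among Cdx1, Cdx2, Cdx4, Gbx2, Gdf11 and Ctcf, passed across gates. Of 7 tested genes that lie beside the clusters 1 was called across gates, Cbx5 at the HoxC end, against 22.2% of all tested genes. Cbx5 was also the 1 of 7 called in the Clmp gate, where 14.6% of all tested genes were called. It was at 182 CPM there against 142 CPM in the other 4 gates (0.46 ± 0.09, adjusted p = 0.000308, edgeR). Counts of this size are no result about the list.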

How the data were processed

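The deposited files hold UMI counts per gene and cell, which the authors made on Rnor_6.0 with STAR, SAMtools, Subread's featureCounts and UMI-tools, per the submitters' processing notes, without versions; these counts were checked to be whole. Batch 21 was left out as a copy of batch 20 (0 values differed). Cells with at least 2000 genes were kept. The members, gates and gene lists were chosen with earlier results of these data known. Named genes were Hox genes with a UMI in at least 10% of cells or called in a test, and up to 3 called members per list. Some rows and markers are not reported here.

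Batch and gate sums of at least 3 cells (48 sums, 408928 to 7285987 UMIs) were fitted with edgeR 4.0.16 (TMM factors, filterByExpr with a minimum count of 10, quasi-likelihood F-test, gate and batch as terms, Benjamini-Hochberg adjustment over 14574 genes). A gate with sums in fewer than 3 batches was not tested, so contrasts use 5 of 7 gates. A standard error is the size of the fold change (log2) over the root of F. Clusters and paralogues were compared by sign-flip tests over batches with a pseudocount of 1 CPM. The fit was tested on simulated data. Because each neuron was collected by hand, doublets were not called. Alternatives included DESeq2 1.42.0, other gate thresholds, thinning and leaving out each batch.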

Additional observations from a re-analysis of the deposited data

Results flagged for a closer look

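In the Gzmbl3+Lpar3 gate, the only one with 4 to 10 sums, 17 Hox genes were checked for a sum far from the other 6, and 4 had one above Dixon's 95% critical ratio. These were Hoxb3 at 2.97 CPM in batch 22, with the next sum at 0; Hoxb4 at 7.12 CPM in batch 29, next 2.97 CPM; Hoxc5 at 4.27 CPM in batch 29, next 0.807 CPM; and Hoxd1 at 7.27 CPM in batch 28-3, next 2.08 CPM. Chance would flag about 1 in 20 groups if the sums were normally spread. Several of these sums are at 0, so that rate does not apply here and the number of flags is not read. Values this low rest on few UMIs.

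Rows of microRNA genes inside the Hox clusters, which the naming rule leaves out, held UMIs above the 3 counts that a count of 0 allows. Mir10a and Mir196c of the HoxB cluster had 16 and 13 UMIs, and Mir10b, whose RefSeq span overlaps Hoxd4, had 6 in the kept cells. The reads come from polyadenylated RNA and say nothing of the mature microRNAs.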

How the results depend on the processing

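The 3 differences between HoxB, HoxC and HoxD kept their direction and call under the 6 other settings and without each batch. Of the paralogue steps, 2 against 1 was called when cells were weighted alike (-0.50, adjusted p = 0.00296) and was 0.04 in gated cells only, and 8 against 7 ran from -0.08 (without batch 24) to 0.26 when a batch was left out; neither had been called. The 5 Hox genes called across gates became 9 with bias-adjusted deviances, 3 with at least 5 cells per sum, 3 at a gate threshold of 10 CPM and 1 with cells thinned to 30000 UMIs, where 3 Hox genes were left to test. The 8 summed calls became 5 at a threshold of 100 CPM and 1 after thinning. Without the batch term, that is with no replicate block, the counts were 6 across gates and 11 summed, and with DESeq2 6 and 10. Leaving out a batch gave 5 to 6 and 7 to 8. Hoxd1 in the Clmp gate turned to -0.13 at 10 CPM. Of the other comparisons of single genes in a gate, 14 lost their call in other settings and 7 without a batch, all of Hoxb2, Hoxb5 in Gzmbl3+Lpar3, Hoxb8, Hoxd1 or Hoxd8. The cause was not tested. Counting Clmp cells in their other gate (6 and 11), leaving out the Th gate (7 and 9) and leaving out cells rich in glial markers (5 and 7) were chosen after seeing the data. Genes under 1 CPM rest on few UMIs per sum, and the 3 Th sums and 7 Gzmbl3+Lpar3 sums limit those gates.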
